A study of Mus musculus with 16 samples.

Results

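Chromosomes 6 and 8 of the mouse carried 414 of the 3925 genes around whose starts reads were counted, 203 on chromosome 6 and 211 on chromosome 8. They were taken whole, by chromosome name, chosen by their flank and promoter counts, since earlier results of these data had shown less of every mark around their genes in Bap1-deleted cells than in controls. That regional difference chose them and is therefore given as a description, with no test. The study measured 4 histone marks by chromatin immunoprecipitation and sequencing (ChIP-seq) in mesenchymal stromal cells of the endosteum, the bone surface that faces the marrow. The cKO cells came from C57BL/6J mice with the genotype Prx1-cre;Bap1fl/fl, in which a recombinase active in limb-bud mesenchyme removes Bap1. The WT cells came from C57BL/6J mice with the genotype Bap1fl/fl, so both groups carried the floxed alleles. Each mark had 2 cKO and 2 WT libraries, 16 in all. Whether the libraries of a group stem from different animals is not given, so p-values reflect the spread of these libraries only, and that may be technical spread.

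BAP1 is a deubiquitinase that takes ubiquitin off histone H2A (the mark H2AK119ub1), which Polycomb complexes place on silent developmental genes and, thinly, over much of the genome. H3K27me3 is the other Polycomb mark, while H3K4me3 and H3K27ac mark active promoters. Chromosome 6 carries genes that matter to marrow stroma, among them Pparg, the master regulator of fat-cell formation, Col1a2, which encodes collagen of bone matrix, and Cxcl12, the chemokine that holds blood stem cells in their niche. Chromosome 8 carries Cdh11, a cadherin of bone-forming cells, and transcription factor genes such as Maf and Foxf1.

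The promoters shown next are those of the genes on which the account of single promoters turns. Pparg and Col1a2 lost active marks, Gata2 and Adgrl1 gained them, and Cxcl12, lower as counted, did not pass the test once the level of its surroundings was taken out. They are RefSeq sequences of GRCm38.p6, 250 bases before to 50 after the annotated start, printed 5′ to 3′ on the gene's strand, with each CG dinucleotide in capitals. Pparg lies at chr6:115360894-115361193 on the + strand, Col1a2 at chr6:4505368-4505667 (+), Cxcl12 at chr6:117168285-117168584 (+), Gata2 at chr6:88193641-88193940 (+) and Adgrl1 at chr8:83899848-83900147 (+).
Pparg: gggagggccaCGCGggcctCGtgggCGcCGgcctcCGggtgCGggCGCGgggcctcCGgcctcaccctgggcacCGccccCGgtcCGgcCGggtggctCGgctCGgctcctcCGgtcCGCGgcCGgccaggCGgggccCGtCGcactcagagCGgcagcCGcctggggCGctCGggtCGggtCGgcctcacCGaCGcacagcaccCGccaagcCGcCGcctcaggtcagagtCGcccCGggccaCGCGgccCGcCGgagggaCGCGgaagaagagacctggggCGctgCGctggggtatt
Col1a2: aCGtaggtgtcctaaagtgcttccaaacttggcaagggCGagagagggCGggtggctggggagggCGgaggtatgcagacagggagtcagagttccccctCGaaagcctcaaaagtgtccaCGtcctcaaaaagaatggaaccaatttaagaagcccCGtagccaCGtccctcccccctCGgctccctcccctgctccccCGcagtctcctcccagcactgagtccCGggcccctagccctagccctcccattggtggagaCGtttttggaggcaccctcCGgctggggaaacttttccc
Cxcl12: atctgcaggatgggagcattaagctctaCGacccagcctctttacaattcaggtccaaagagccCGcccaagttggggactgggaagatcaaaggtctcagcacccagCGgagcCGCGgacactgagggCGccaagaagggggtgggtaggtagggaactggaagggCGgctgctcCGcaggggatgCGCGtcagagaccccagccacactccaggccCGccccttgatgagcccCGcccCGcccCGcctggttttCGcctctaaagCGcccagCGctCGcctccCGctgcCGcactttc
Gata2: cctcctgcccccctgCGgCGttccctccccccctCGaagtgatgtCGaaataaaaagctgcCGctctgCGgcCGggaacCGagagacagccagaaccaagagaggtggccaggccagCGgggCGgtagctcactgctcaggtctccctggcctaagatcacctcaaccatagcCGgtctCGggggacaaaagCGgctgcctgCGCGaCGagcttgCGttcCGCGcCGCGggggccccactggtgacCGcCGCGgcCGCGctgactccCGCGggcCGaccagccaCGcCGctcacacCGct
Adgrl1: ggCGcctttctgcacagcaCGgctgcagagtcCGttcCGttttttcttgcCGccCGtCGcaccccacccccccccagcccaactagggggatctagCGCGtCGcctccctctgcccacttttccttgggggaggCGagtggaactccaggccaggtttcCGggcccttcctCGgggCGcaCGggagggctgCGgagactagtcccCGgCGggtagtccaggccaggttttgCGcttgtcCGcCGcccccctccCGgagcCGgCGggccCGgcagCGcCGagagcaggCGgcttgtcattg
Pparg holds 44 CG dinucleotides in this window, Gata2 32, Adgrl1 28, Cxcl12 20 and Col1a2 13. Of the 414 genes, 269 had a promoter in the RefSeq table, with a median of 19 CG, against 7 over all 32851 promoters of the table. At least 1 CG was present in 99.6% of the 269 and in 94.6% of all promoters. The table is not limited to the genes around whose starts reads were counted. CG counts of the other counted genes are not given here. Whether promoters of these chromosomes differ from those in CG content was therefore not tested. The printed windows did not sort by direction, since Pparg, with the most CG of the 5, and Col1a2, with the fewest, both lost active marks.

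Around each start the counts covered 10 kb in 200 bins of 50 bp, and each read filled about 3 bins. The flank of a window is the outer 1 kb at either end, and the promoter is the central 4 kb, 2 kb to each side of the start. Total bin counts were 1283020 to 10101047 per library, about 429493 to 3371063 reads, and the median flank count of a gene on these chromosomes was 39.0 to 144.5 per library. Counts of the 2 libraries of a group differed by 1.70 to 3.20 times what sampling alone gives (chi-square over its degrees of freedom, promoter counts, each read counted once), so no pair agreed within sampling noise. Of 15 listed stromal markers 10 were measured, 8 of them with 147 to 591 CPM (counts scaled to a common library size) of H3K4me3 in WT cells, led by Cxcl12, Pdgfrb, Twist2 and Kitl. Vcam1 (147 CPM) and Eng (174 CPM) stood near the middle of the promoters, at percentiles 45.7 and 51.9. Thy1 (17.3 CPM) and Ly6a (23.0 CPM) were low, 1 of 10 listed blood genes was measured (Cd68, 30.8 CPM), and none of 7 endothelial genes was among the genes counted. The libraries titled H3K4me3 have the H3K27ac antibody in their antibody field and those titled H3K27ac the H3K4me3 antibody, so these marks are named here by title.

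Both chromosomes held a smaller share of the autosomal flank reads in cKO than in WT cells, in every mark and every library. On chromosome 6 the H2AK119ub1 shares were 5.18% and 5.22% in cKO cells, against 6.45% and 6.70% in WT cells. The H3K27me3 shares were 5.39% and 5.65% in cKO cells, against 6.72% and 6.88% in WT cells. The H3K4me3 shares were 4.63% and 4.55% in cKO cells, against 6.72% and 6.76% in WT cells. For H3K27ac they were 4.53% and 4.42% in cKO cells, against 6.43% and 6.51% in WT cells, so that in no mark did the genotypes overlap. Chromosome 6 carries 5.36% of the autosomal windows, so WT cells held more than that share in all marks and cKO cells stood under it in 3 of the 4.

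Chromosome 8 carries 5.57% of the autosomal windows and showed the same order. Its H2AK119ub1 shares were 6.4% and 6.27% in cKO cells, against 7.92% and 7.91% in WT cells. Its H3K27me3 shares were 6.41% and 6.19% in cKO cells, against 7.44% and 7.09% in WT cells, the nearest that the genotypes came to each other. Its H3K4me3 shares were 4.69% and 4.69% in cKO cells, against 7.32% and 7.40% in WT cells. Its H3K27ac shares were 5.50% in both cKO libraries, against 7.11% and 7.13% in WT cells. On both chromosomes and in every mark the gap between the nearest cKO and WT libraries was wider than the difference between the libraries of a group.

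**Figure D1:**
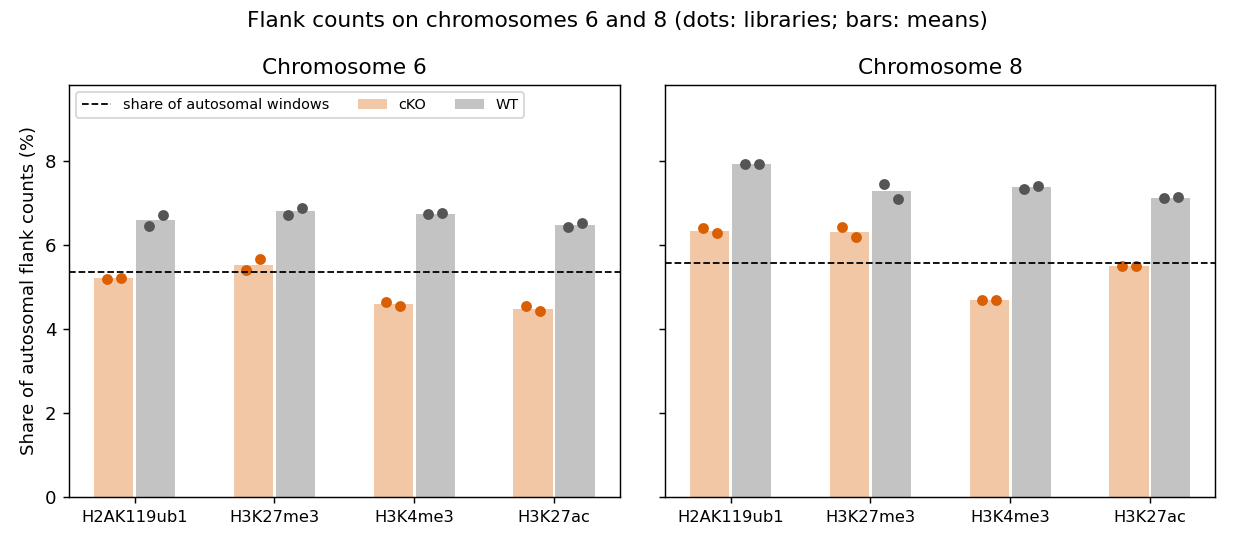
Share of autosomal flank counts (%, y axis) on chromosome 6 (left) and chromosome 8 (right) for each mark (x axis), cKO left of WT, with a dot per library, bars at the mean and a dashed line at the share of windows. WT bars stand above the line in all 8 pairs, and cKO dots lie under the WT dots in each.

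A share can be carried by a few strong genes, so the flank level was also taken as a median over genes. For each library it is the median log2 ratio of flank counts to the mean of the mark's 4 libraries, less the same median over all 3789 autosomal genes. On chromosome 6 cKO minus WT was -0.37 for H2AK119ub1, -0.28 for H3K27me3, -0.46 for H3K4me3 and -0.50 for H3K27ac, or 0.773, 0.825, 0.727 and 0.709 times WT. On chromosome 8 it was -0.32, -0.20, -0.33 and -0.31 in the same order of marks, or 0.800, 0.868, 0.798 and 0.805 times WT. Both cKO libraries lay under both WT libraries in all 8 cases. For H3K4me3 on chromosome 8 the sum of flank counts gave a larger value, -0.65, than the median, a sum in which genes with many flank reads weigh most. Promoter bins gave medians of -0.36, -0.27, -0.44 and -0.48 on chromosome 6 and of -0.34, -0.32, -0.30 and -0.22 on chromosome 8, in the same order.

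These levels are relative to all autosomal genes, and the reference matters. Taking chromosomes 4, 6, 7, 8, 11 and 12 out of the reference moved every value up by 0.10 (H2AK119ub1), 0.12 (H3K27me3), 0.16 (H3K4me3) and 0.16 (H3K27ac). Chromosome 6 then stood at -0.27, -0.16, -0.30 and -0.33 and chromosome 8 at -0.22, -0.08, -0.17 and -0.15, still under 0. Input libraries were not used here, so the number of DNA copies of a region in the cells and the amount of mark per copy cannot be told apart.

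Chromosome 6 ranked 4, 5, 2 and 1 from the lowest of 19 autosomes for H2AK119ub1, H3K27me3, H3K4me3 and H3K27ac, and chromosome 8 ranked 6, 8, 7 and 8. The other autosomes lower than chromosome 8 in every mark were 15 (-0.35 to -0.44 over the marks), 16 (-0.41 to -0.52), 18 (-0.37 to -0.44) and 19 (-0.38 to -0.45), whereas chromosome 7 stood highest for H3K4me3 at 0.62. Across the 19 autosomes the flank changes of any 2 marks went together, with Pearson's r of 0.95 to 0.99 and Spearman's rho of 0.93 to 0.98 over 6 pairs of marks. Marks of opposite function thus gave a like order of chromosomes. Across the 414 genes of chromosomes 6 and 8 the same correlations were weak, with r of -0.25 to 0.50. These correlations are descriptions, since the points share libraries and the marks share cells.

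In WT cells the 2 chromosomes were denser than the median autosome in every mark. Flank density is the median count per window of a chromosome over the autosomal median, on the log2 scale. Chromosome 6 had mean densities of -0.06 (H2AK119ub1), 0.05 (H3K27me3), -0.05 (H3K4me3) and -0.14 (H3K27ac) in cKO cells, against 0.33, 0.34, 0.33 and 0.36 in WT cells. It therefore stood near the typical autosome in cKO cells and above it in WT cells. Chromosome 8 had 0.20, 0.16, 0.19 and 0.16 in cKO cells, against 0.57, 0.30, 0.42 and 0.44 in WT cells, and stayed above the median in both. WT densities of chromosome 8 ranked 1 from the highest of 19 for H2AK119ub1, 2 for H3K4me3 and H3K27ac, and 6 for H3K27me3. WT densities of any 2 marks correlated across autosomes with r of 0.95 to 0.99 (6 pairs, n = 19, no test).

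**Figure D2:**
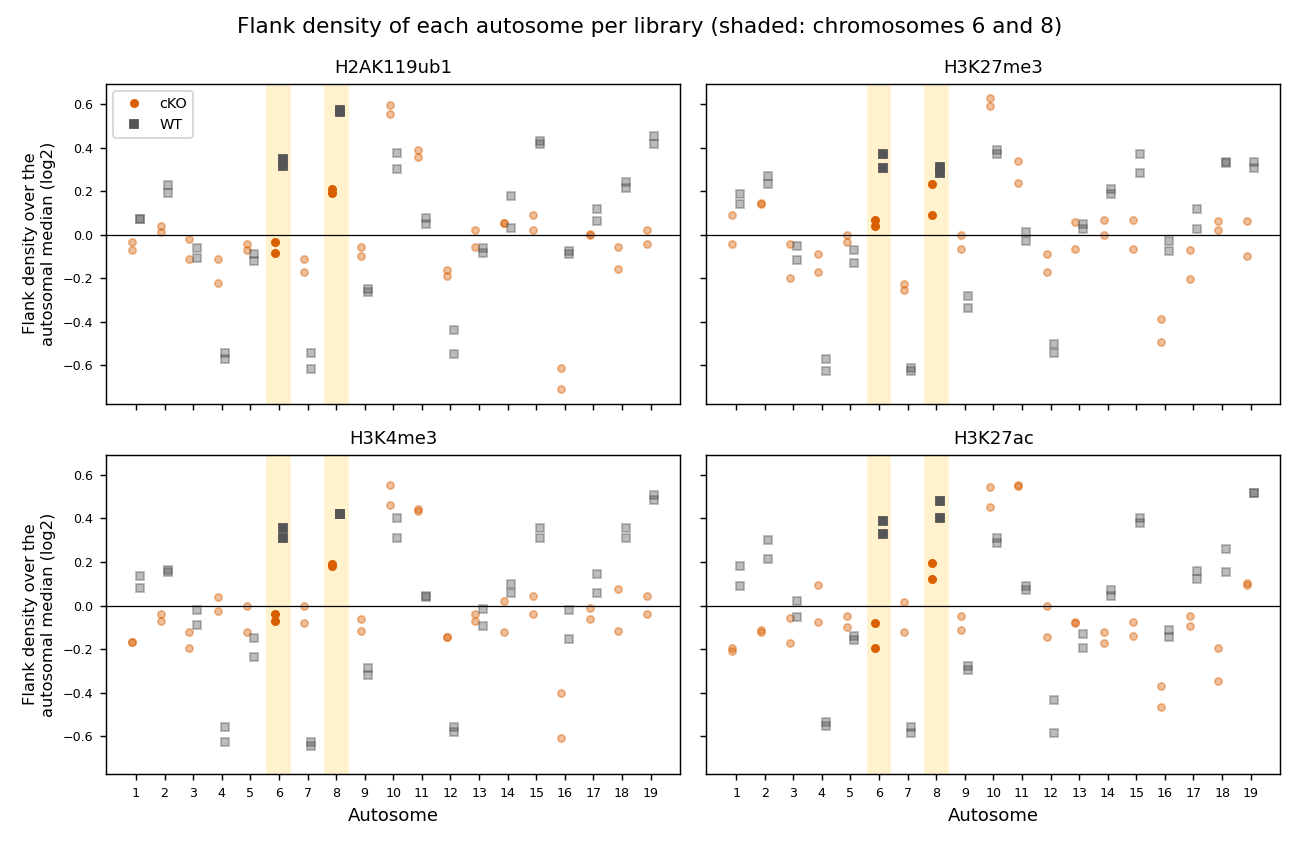
Flank density of each autosome over the autosomal median (log2, y axis) for every library, cKO (circles) left of WT (squares), 1 panel per mark, chromosomes 6 and 8 shaded. On chromosome 6 the cKO circles lie near 0 and the WT squares at 0.30 to 0.39 in all panels.

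WT promoters differed the same way. The median promoter level in WT cells was 138 CPM on chromosome 6, 156 CPM on chromosome 8 and 104 CPM on the other autosomes for H2AK119ub1. It was 99.6, 105 and 79.3 CPM for H3K27me3, 208, 229 and 165 CPM for H3K4me3, and 149, 156 and 125 CPM for H3K27ac, in the same order. The quartiles of the groups overlapped in each mark.

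Relative to all autosomal genes, the median level of the counted windows was lower in cKO cells in each stretch of both chromosomes. Cut into 20 Mb blocks they gave 15 blocks, 8 on chromosome 6 and 7 on chromosome 8, with 13 to 49 genes each. All 60 changes, 15 blocks in 4 marks, were under 0, and 52 stayed under 0 with the narrower reference named above. Both cKO libraries lay under both WT libraries in 14 of 15 blocks for H2AK119ub1, 12 for H3K27me3, 14 for H3K4me3 and 14 for H3K27ac. Over the 129 blocks of all autosomes this held for 42.6%, 43.4%, 48.1% and 46.5%. Since the chromosomes were chosen for this difference, nothing is read from these counts.

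Blocks of chromosome 6 differed among themselves and between marks. H2AK119ub1 was lowest, at -0.58, in the block from 80 to 100 Mb, which carries Gata2, Klf15, Cyp26b1 and Paip2b. It was nearest to 0, at -0.09, in the last block, from 140 to 160 Mb, where cKO libraries stood at -0.02 and -0.01 and WT libraries at -0.10 and 0.24, so that the genotypes overlapped. In that last block H3K27me3 had its lowest value of chromosome 6, -0.48. H3K4me3 was lowest, at -0.69, from 120 to 140 Mb, around Cdca3, Ing4 and Mgst1. H3K27ac varied least, between -0.57 and -0.34 over the 8 blocks. H3K27me3 was at -0.04 in the first block, around Col1a2 and Sgce, with cKO libraries at 0.04 and -0.13 and WT libraries at -0.04 and 0.02.

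On chromosome 8 the ends stood apart in the active marks. In the last block, from 120 to 140 Mb, which carries Foxf1 and Cyba, the change was -0.04 for H3K4me3 and -0.06 for H3K27ac, with overlapping H3K27ac libraries. H2AK119ub1 stood at -0.47 and H3K27me3 at -0.33 there. In the first block, from 0 to 20 Mb, which carries Xkr5, flanks were lower in all marks (-0.41, -0.36, -0.39 and -0.18 in the order used above), whereas the promoter medians were 0.11 for H3K4me3 and 0.22 for H3K27ac. In that block the authors marked 14 of 19 genes UP, the highest share of the 15 blocks of the 2 chromosomes. The lowest H3K27ac flank change of chromosome 8, -0.56, was in its second block, from 20 to 40 Mb, where 22 of 26 genes were marked DOWN. In the other blocks that overlapped, the H3K27me3 change was -0.15 (20 to 40 Mb) and -0.07 (80 to 100 Mb), and the H3K4me3 change was -0.12 (40 to 60 Mb).

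**Figure D3:**
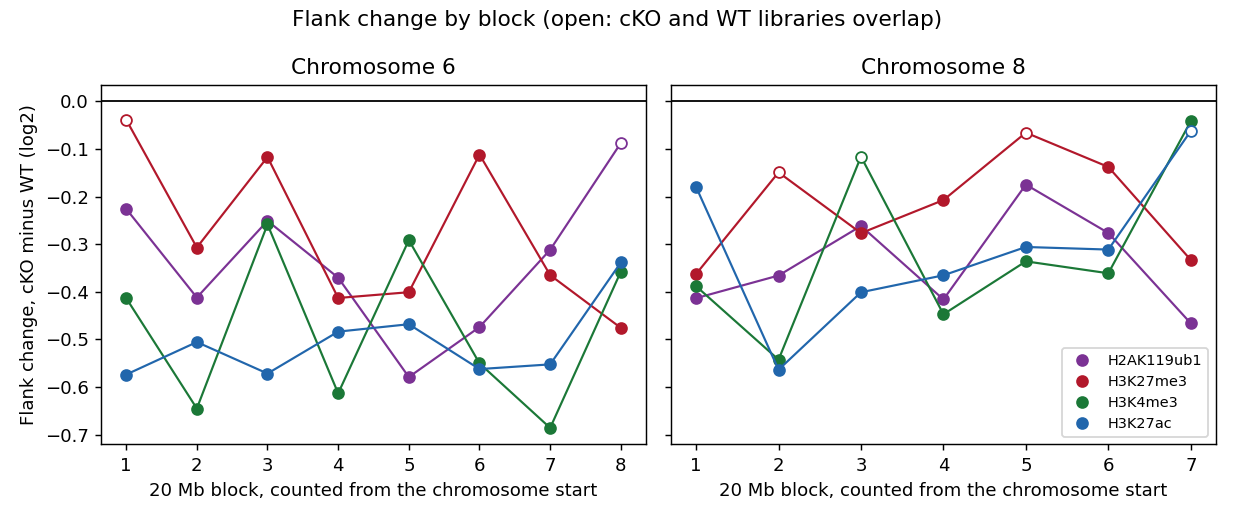
Flank change, cKO minus WT (log2, y axis), in each 20 Mb block of chromosomes 6 and 8 (x axis, blocks counted from the start), with open circles where the libraries of the genotypes overlap. Every point lies under 0, and H3K4me3 and H3K27ac approach 0 in the last block of chromosome 8 while H2AK119ub1 does not.

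Within the windows, too, the lower level was seen away from the start as well as at it. When the 10 kb were split into 20 segments of 0.5 kb, the share of autosomal counts on the 2 chromosomes was lower in both cKO libraries than in both WT libraries in 20 of 20 segments for each mark. The chromosomes were chosen on flank and promoter counts, which fill many of these segments, so nothing is read from this count. The change ran from -0.38 to -0.29 for H2AK119ub1 and from -0.32 to -0.17 for H3K27me3. For H3K27ac it ran from -0.48 to -0.33. H3K4me3 varied most, from -0.37 beside the start, where this mark peaks, to -0.68 in the most downstream segment. These are sums, in which genes with many reads weigh most. As medians over genes, the H3K4me3 change on chromosome 6 was -0.49 in the upstream flank and -0.44 in the flank inside the gene. On chromosome 8 it was -0.25 and -0.32, so the medians show no downstream fall of that size.

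**Figure D4:**
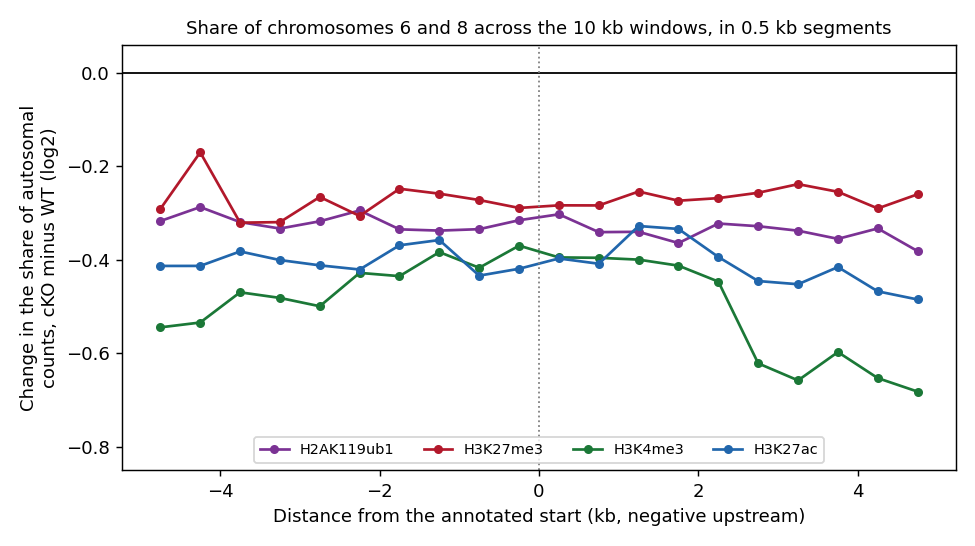
Change in the share of autosomal counts on chromosomes 6 and 8, cKO minus WT (log2, y axis), by distance from the annotated start (kb, x axis) in 20 segments, 1 line per mark. All segments lie under 0, with H3K4me3 between -0.37 and -0.68.

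The authors' table gives each gene a mark, UP or DOWN, whose contrast is not stated in the sources used here. On chromosome 6 143 of 203 genes (70.4%) were DOWN, and on chromosome 8 130 of 211 (61.6%), against 1667 of 3375 (49.4%) on the other autosomes. Across the 19 autosomes the share of DOWN genes was higher where the flank change was lower, with r from -0.95 to -0.87 and rho from -0.91 to -0.79 in the 4 marks, a description over points that share libraries. For H2AK119ub1 the median flank change was alike in UP and DOWN genes of the 2 chromosomes, -0.36 and -0.32. For H3K27me3 it was -0.49 in UP and -0.14 in DOWN genes. For H3K4me3 it was -0.16 in UP and -0.47 in DOWN genes, and for H3K27ac -0.02 and -0.56. With the narrower reference the H3K27ac median of UP genes would stand above 0.

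Promoters of the 2 chromosomes were tested in 2 fits, each over all promoters. The first fit compared cKO with WT as they stand. H2AK119ub1 was called higher at 3 and lower at 112 promoters, where 16.7% and 16.4% of all promoters were called. H3K27me3 was called higher at 22 and lower at 78 (12.4% and 15.6% of all), H3K4me3 at 88 and 224 (40.5% and 31.8%), and H3K27ac at 55 and 175 (30.9% and 29.1%). These calls belong to the contrast that chose the chromosomes and are not read further. Leaving out 1 library took the lower H2AK119ub1 calls to 1 without cKO replicate 1 and to 10 without cKO replicate 2, and the higher ones to 6 without WT replicate 2. The lower H3K27me3 calls were 44 and 46 without cKO replicate 1 and 2, the higher ones 14 without cKO replicate 2, and the lower H3K27ac calls were 113 without either WT replicate.

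The second fit asked which promoters differed beyond the flanks around them, by subtracting from each library the flank level of the gene's own 20 Mb block. That level was taken as known, so the SE and p-values of the second fit leave out its error, a limit for small changes above all. In the first block of chromosome 8, for example, the H3K4me3 levels of the 2 cKO libraries were -0.43 and 0.06. All later log2 changes, CPM values and calls are from this fit, with edgeR's quasi-likelihood test and Benjamini-Hochberg adjustment over all autosomal promoters. Of the 414 genes, 411 could be tested in all marks and 3 lacked counts in at least 1. H2AK119ub1 was higher at 15 and lower at 10 of 412 promoters, beside 2.4% and 2.37% of all autosomal promoters. H3K27me3 was higher at 32 and lower at 55 of 411 (9.23% and 10.5% of all). H3K4me3 was higher at 130 and lower at 77 of 413 (28.3% and 17%), and H3K27ac higher at 97 and lower at 70 of 412 (21.7% and 19.5%). Median changes of the tested promoters were 0.06, -0.01, 0.08 and 0.10, against 0.07, 0.04, 0.07 and 0.05 over all autosomal promoters. The members called come to 3.64% and 2.43% of those tested for H2AK119ub1, 7.79% and 13.4% for H3K27me3, 31.5% and 18.6% for H3K4me3, and 23.5% and 17.0% for H3K27ac, each higher and lower.

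Every block level subtracted was lower in cKO than in WT cells, so a move from lower towards higher calls was largely set in advance. Nothing is read from that move. Higher calls went from 3 to 15 for H2AK119ub1 and from 22 to 32 for H3K27me3. For H3K4me3 they went from 88 to 130, and for H3K27ac from 55 to 97. Of the promoters lower in the first fit, the second kept 10 of 112 for H2AK119ub1, 55 of 78 for H3K27me3, 77 of 224 for H3K4me3 and 70 of 175 for H3K27ac. Every promoter lower in the second fit was also lower in the first. The H2AK119ub1 calls of the second fit were 2 higher and 1 lower without cKO replicate 1, and 7 and 3 without cKO replicate 2. Those of H3K27me3 were 16 and 23 without cKO replicate 1, and 20 and 24 without cKO replicate 2. A genotype left with 1 library gives a test of less power, and among promoters named later the H2AK119ub1 calls at Cdyl2 and Eif4ebp1 held with cKO replicate 1 left out and with cKO replicate 2 left out.

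Cxcl12 shows what the regional level does at a strong promoter. Its H3K4me3 was 420 and 433 CPM in cKO cells, against 495 and 483 CPM in WT cells, after the regional level was taken out. The cKO libraries lay under the WT libraries, but the change, -0.20 ± 0.12 (SE), had an adjusted p of 0.204. As counted, the change was -0.75 in the first fit, which holds the regional difference that chose the chromosomes. Its H3K27ac was -1.01 in the first fit and -0.47 ± 0.21 in the second (adjusted p = 0.0751). H2AK119ub1 at Cxcl12 did not differ in the second fit, with 230 and 168 CPM in cKO cells, against 251 and 147 CPM in WT cells. With block levels from summed flank counts the H3K4me3 change of Cxcl12 was 0.41, with an adjusted p of 0.000707, so its sign depends on how the flanks are summarised.

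Pparg and Col1a2 lost active marks beyond the median flank level of their 20 Mb blocks. At Pparg H3K4me3 was 67.4 and 72.2 CPM in cKO cells, against 325 and 361 CPM in WT cells, a change of -2.29 ± 0.15 (SE, adjusted p = 6.95e-18). H3K27ac at Pparg was 57.3 and 58.3 CPM in cKO cells, against 239 and 170 CPM in WT cells (-1.82, adjusted p = 7.15e-09). H3K27me3 at Pparg moved the other way, with 347 and 265 CPM in cKO cells, against 73.1 and 73.2 CPM in WT cells (2.06 ± 0.30, adjusted p = 5.33e-10). No pair of genotypes overlapped in these 3 marks, while H2AK119ub1 at Pparg did, at 144 and 114 CPM in cKO cells, against 121 and 118.6 CPM in WT cells. At Col1a2 H3K4me3 was 44.8 and 39.5 CPM in cKO cells, against 372 and 345 CPM in WT cells (-3.09 ± 0.16, adjusted p = 8.85e-22), and H3K27ac fell with it (-2.68, adjusted p = 7.4e-14). The windows of both genes lost H3K4me3 out to their edges. The H3K4me3 flank counts were 46 and 33 in cKO cells, against 490 and 531 in WT cells, at Pparg. At Col1a2 they were 22 and 57 in cKO cells, against 667 and 755 in WT cells. Col1a2 did not pass the test in H3K27me3 (0.61, adjusted p = 0.219) or in H2AK119ub1 (0.44, adjusted p = 0.253).

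Cdyl2, a chromodomain protein gene of the Cdyl family, was the gene of the 2 chromosomes at which all 4 marks fell, a pattern held by 0.107% of all autosomal promoters. Its H3K4me3 was 14.5 and 11.5 CPM in cKO cells, against 206 and 255 CPM in WT cells (-4.17 ± 0.20, adjusted p = 9.33e-23). Its H2AK119ub1 was 19.2 and 57.6 CPM in cKO cells, against 168 and 165 CPM in WT cells (-2.09 ± 0.30, adjusted p = 0.000216). H3K27me3 (-1.72, adjusted p = 2.43e-05) and H3K27ac (-2.45, adjusted p = 2.93e-09) fell too, and no genotypes overlapped in any mark. At its flanks the H2AK119ub1 counts were 6 and 59 in cKO cells, against 103 and 125 in WT cells, whereas the H3K4me3 flank counts were 33 and 43 in cKO cells, against 40 and 35 in WT cells. These WT H3K4me3 flank counts were under the WT medians of the 2 chromosomes, 65.0 and 92.5, and the cKO H2AK119ub1 flank counts differed between libraries. How far the loss of either mark reached at Cdyl2 cannot be compared from these counts. DESeq2 gave the H2AK119ub1 change as -2.11 with an adjusted p of 0.07.

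Gata2, a zinc-finger factor of blood and mast cell precursors, and Adgrl1, an adhesion receptor of the latrophilin family, showed the opposite exchange to Pparg. H3K27me3 at Gata2 was 224 and 222 CPM in cKO cells, against 833 and 547 CPM in WT cells (-1.63 ± 0.26, adjusted p = 3.68e-08). H3K4me3 at Gata2 was 178 and 176 CPM in cKO cells, against 37.4 and 39.8 CPM in WT cells (2.19 ± 0.19, adjusted p = 2.41e-14). Its H3K4me3 flank counts were 1080 and 1398 in cKO cells, against 551 and 703 in WT cells. The median H3K4me3 flank count of a gene on these chromosomes was 39.0 to 92.5 per library. The Gata2 window thus carried the mark outside the promoter bins in WT cells too. H2AK119ub1 at Gata2 stood at -0.76 in the first fit, which holds the regional difference, and at -0.18 in the second (adjusted p = 0.613). Adgrl1 was lower in both Polycomb marks beyond its block. Its H3K27me3 was 104 and 76.5 CPM in cKO cells, against 417 and 366 CPM in WT cells (-2.12, adjusted p = 2.85e-11), and its H2AK119ub1 was 112 and 99.5 CPM in cKO cells, against 207 and 177 CPM in WT cells (-0.86, adjusted p = 0.0225). H3K4me3 (1.99) and H3K27ac (2.02) at Adgrl1 rose. The H2AK119ub1 call at Adgrl1 was lost without cKO replicate 1 (adjusted p = 0.062), without cKO replicate 2 (adjusted p = 0.11) or without WT replicate 1 (adjusted p = 0.064).

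Counted over all genes of the 2 chromosomes, H3K27me3 was lower with both active marks higher at 36 promoters, 15 on chromosome 6 and 21 on chromosome 8, and 35 of these were marked UP by the authors. They were 8.76% of the genes tested in these marks, beside 6.78% of all autosomal promoters. The reverse, with H3K27me3 higher and both active marks lower, held at 15 promoters, 9 on chromosome 6 and 6 on chromosome 8, all marked DOWN (3.65%, beside 3.44% of all). H3K4me3 and H3K27ac were both higher at 79 promoters (19.2%, beside 16.3% of all) and both lower at 47 (11.4%, beside 11.9%). They were called in opposite directions at none, at 1 with an unadjusted p under 0.05 in edgeR's quasi-likelihood test, and at none with DESeq2. H2AK119ub1 and H3K27me3 were both lower at 7 promoters (1.7%, beside 1.25% of all) and both higher at 1 (0.243%, beside 0.374%). No mark was called at 138 of the 411 genes tested in all marks (33.6%, beside 36.7%). Of 141 genes marked UP, H3K4me3 was higher at 101 and lower at 2 (71.6% and 1.42%). Of 272 tested genes marked DOWN, H3K4me3 was higher at 29 and lower at 75 (10.7% and 27.6%). Over all autosomal promoters the shares were 28.3% and 17%, and calls there were not counted by UP and DOWN. UP and DOWN genes of the other autosomes split too. As counted, their median promoter H3K4me3 changes were 0.65 and -0.41, against 0.29 and -0.54 on chromosomes 6 and 8.

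**Figure D5:**
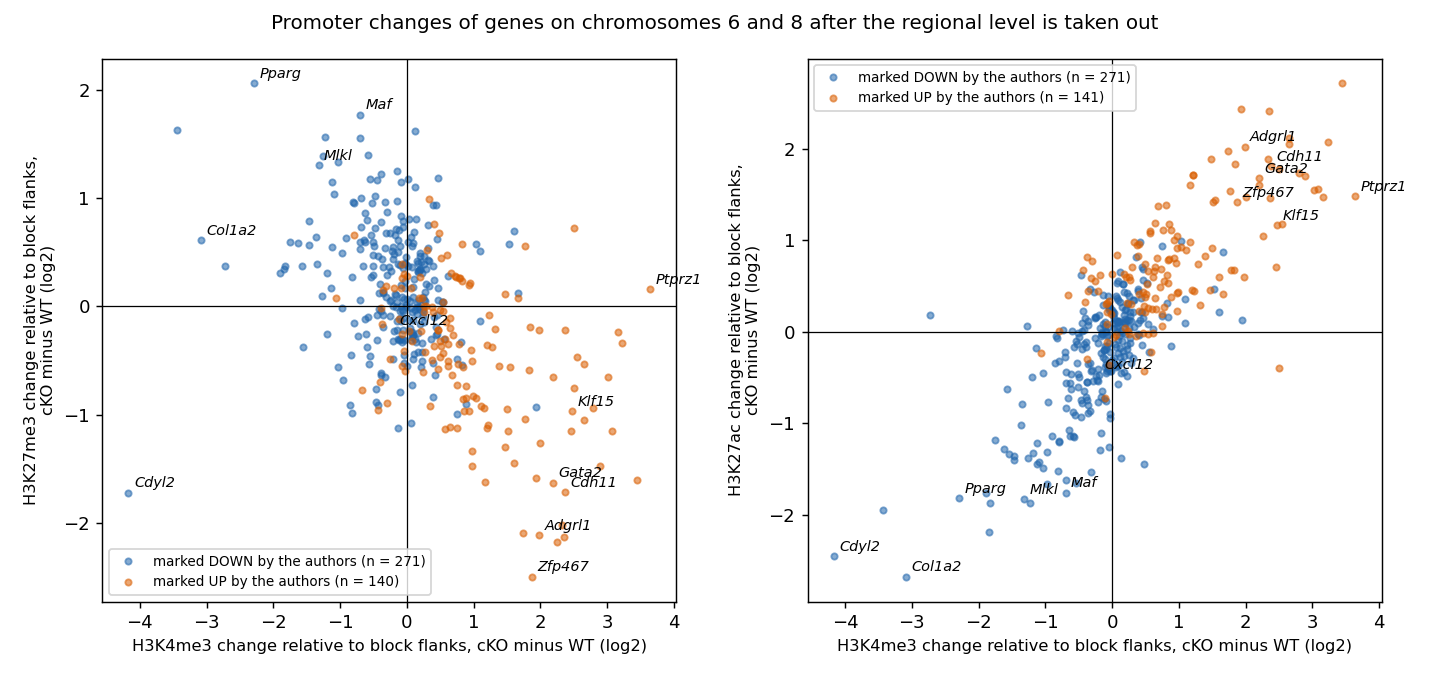
Promoter changes beyond the block flanks, cKO minus WT (log2), H3K4me3 on the x axis against H3K27me3 (left) and H3K27ac (right) on the y axis, 1 dot per gene of chromosomes 6 and 8, coloured by the authors' mark. Pparg lies at -2.29 for H3K4me3 and 2.06 for H3K27me3, Gata2 at 2.19 and -1.63, and Cdyl2 is low on all axes.

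Further promoters of lowest p lost H3K27me3. On chromosome 6 they were Zfp467, a zinc-finger gene known in mouse marrow stroma for favouring fat over bone formation, and Clec2l, a C-type lectin gene. H3K27me3 at Zfp467 was 87.0 and 74.5 CPM in cKO cells, against 465 and 450 CPM in WT cells (-2.50 ± 0.29, adjusted p = 4.27e-15). At Clec2l it was 89.4 and 97.7 CPM in cKO cells, against 477 and 371 CPM in WT cells (-2.18). H3K4me3 rose at Zfp467 (1.88) and at Clec2l (2.26). Those that gained H3K27me3 were Paip2b (1.63), an inhibitor of translation through poly(A)-binding protein, Maf (1.77), a bZIP transcription factor, and Csgalnact1 (1.56), an enzyme of chondroitin sulfate synthesis. Maf had 332 and 273 CPM of H3K27me3 in cKO cells, against 99.2 and 78.5 CPM in WT cells (adjusted p = 1.02e-07). H3K27ac fell at Paip2b (-1.95), Maf (-1.76) and Csgalnact1 (-1.86). The genotypes did not overlap in any of the values of this paragraph.

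Other promoters gained or lost H3K4me3 or H3K27ac and did not pass the test in H3K27me3. Ptprz1, a receptor tyrosine phosphatase, had 301 and 299 CPM of H3K4me3 in cKO cells, against 26.6 and 21.5 CPM in WT cells (3.65 ± 0.19, adjusted p = 7.77e-22), with H3K27me3 at 0.16 (adjusted p = 0.784). Isyna1, the synthase of inositol phosphate, had 340 and 264 CPM of H3K4me3 in cKO cells, against 34.0 and 30.4 CPM in WT cells (3.23, adjusted p = 1.83e-20), with H3K27me3 at -0.34 (adjusted p = 0.564). Srgap3, a regulator of small GTPases, fell in H3K27ac (-2.18, adjusted p = 4e-12) and H3K4me3 (-1.84), with H3K27me3 at 0.35 (adjusted p = 0.521). Adcy7, an adenylyl cyclase, fell in H3K4me3 to 58.7 and 76.8 CPM in cKO cells, against 176 and 201 CPM in WT cells (-1.47, adjusted p = 5.37e-10), with H3K27me3 at 0.57 (adjusted p = 0.246). In contrast, Zfp422, a zinc-finger gene, rose in H3K4me3 (3.44) and H3K27ac (2.72) with H3K27me3 at -1.61. Klrg2, a lectin-like receptor gene, and Xkr5, of the XK family, did likewise, with H3K27ac of 1.89 and 2.41 and H3K27me3 of -2.02 and -2.13. Mlkl, the effector of necroptosis, lost H3K27ac (-1.83, adjusted p = 1.83e-09) and gained H3K27me3 (1.30, adjusted p = 0.0002), a gain that did not pass with a promoter of 1 kb to each side (1.02, adjusted p = 0.072).

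H2AK119ub1 beyond the block level rose at few promoters. Eif4ebp1, an inhibitor of translation, had 190 and 183 CPM in cKO cells, against 86.7 and 94.1 CPM in WT cells (1.04 ± 0.21, adjusted p = 0.00809). Arhgap10, a GTPase-activating gene, had 210 and 183 CPM in cKO cells, against 97.2 and 118.8 CPM in WT cells (0.86, adjusted p = 0.023). Ift122 and Mbd4 start back to back and share a window, so their reads cannot be told apart, and both gave a rise (0.97 and 0.93, adjusted p = 0.0147 and 0.0206). These cKO values lay above the WT values, and H3K4me3 rose at Arhgap10 (0.40, adjusted p = 0.00983) and did not pass the test at Eif4ebp1 (-0.13) or at Ift122 (-0.15). The H3K4me3 change of Arhgap10 was -0.06 (adjusted p = 0.51) without the block level, and its call was lost without cKO replicate 1 (0.26) or WT replicate 1 (0.059). The H2AK119ub1 rises at Arhgap10, Ift122 and Mbd4 were not called without the block level (adjusted p = 0.076, 0.068 and 0.099) or with promoters of 1 kb to each side (0.12, 0.19 and 0.16). Cyp26b1, which breaks down retinoic acid, was lower in H2AK119ub1, with 86.7 and 86.2 CPM in cKO cells, against 141 and 173 CPM in WT cells (-0.86, adjusted p = 0.0256), and in H3K27me3 (-0.91), a call lost without cKO replicate 1 (adjusted p = 0.20) or cKO replicate 2 (0.11). Dennd11, of the DENN-domain family, was lower too (-0.77, adjusted p = 0.0321), with H3K4me3 higher (0.68). Without cKO replicate 1 the H2AK119ub1 calls at Arhgap10 (adjusted p = 0.15), Ift122 (0.10), Mbd4 (0.11), Cyp26b1 (0.10) and Dennd11 (0.15) were lost. Cyp26b1 and Dennd11 also lost theirs without cKO replicate 2 (adjusted p = 0.073 and 0.17), Cyp26b1 without WT replicate 2 (0.084), and Arhgap10 and Dennd11 without WT replicate 1 (0.061 and 0.21). The call at Dennd11 was lost with promoters of 1 kb too (0.18).

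Among 13 matrix and adhesion genes of the 2 chromosomes, H3K4me3 rose at 6 and fell at 5. Each count of this and the later lists is to be set beside the share called over all autosomal promoters. That share was 28.3% higher and 17% lower for H3K4me3, and 21.7% and 19.5% for H3K27ac. It was 9.23% and 10.5% for H3K27me3, and 2.4% and 2.37% for H2AK119ub1. Cdh11 rose, with 608 and 548 CPM of H3K4me3 in cKO cells, against 101 and 122 CPM in WT cells (2.37, adjusted p = 1.45e-19), as its H3K27me3 fell (-1.72, adjusted p = 5.48e-08). Ptprz1, Cdh3 (1.67), Podxl (1.78), Hapln4 (0.75) and Col4a2 (0.58) rose as well. Col1a2, Sgce (-1.75), a sarcoglycan gene, Mgp (-0.70), an inhibitor of mineral deposition, Mmp2 (-0.65) and Mmp15 (-0.35) fell. H3K27me3 fell at 3, Cdh11, Podxl and Hapln4, and rose at none, with 1 higher at an unadjusted p under 0.05 and none by DESeq2. H3K27ac rose at 3 and fell at 3. H2AK119ub1 rose at 1, Emp1 (0.76), and at none by DESeq2. The median H3K4me3 change of the list was 0.01, against 0.07 over all autosomal promoters.

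Of 20 genes of signalling, H3K4me3 rose at 7 and fell at 6 (beside 28.3% and 17% of all autosomal promoters). The ligand gene Ptn rose (1.94, adjusted p = 1.26e-11) and lost H3K27me3 (-0.93, adjusted p = 0.0167). That loss did not pass with blocks of 10 Mb (-0.74, adjusted p = 0.078), without cKO replicate 1 (-0.67) or without WT replicate 1 (-0.90). Efnb2 (0.95), an ephrin, also rose, and the ligand gene Vegfc (-0.43) fell. Among receptors Adgrl1, Epha1 (0.75) and among modulators Hhip, which binds hedgehog ligands, rose. Hhip had 230 and 201 CPM of H3K4me3 in cKO cells, against 25.6 and 22.6 CPM in WT cells (3.16 ± 0.19, adjusted p = 2.81e-19), with H3K27me3 at -0.24 (adjusted p = 0.665). Il12rb1 (-1.19), Plxnd1 (-0.91) and Ephb6 (-0.38), receptors, and Sfrp1 (-0.96), a secreted Wnt antagonist, fell. The kinase gene Jak3 lost H3K27ac, with 95.8 and 97.7 CPM in cKO cells, against 280 and 325 CPM in WT cells (-1.65, adjusted p = 2.18e-09). Its H3K4me3 was -0.54 (adjusted p = 0.00252), but 0.05 with summed flank counts and not called without cKO replicate 2 (adjusted p = 0.087). H3K27ac of the list rose at 3 and fell at 4, H3K27me3 rose at 1 (Irs2, 1.11) and fell at 3, and H2AK119ub1 rose at 1 (Jak3, 0.72, not called without any 1 of the 4 libraries, without the block level or with promoters of 1 kb) and fell at 2 (Sfrp1 and Adgrl1). The median H3K4me3 change of the list was 0.09, against 0.07 over all autosomal promoters.

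Of 14 genes of transcription factors and chromatin proteins, H3K4me3 rose at 6 and fell at 5 (beside 28.3% and 17% of all autosomal promoters). H3K27ac rose at 6 and fell at 4 (beside 21.7% and 19.5%), and H3K27me3 rose at 3 and fell at 4 (beside 9.23% and 10.5%). Foxf1, a forkhead factor of embryonic mesenchyme, had 156 and 222 CPM of H3K27ac in cKO cells, against 44.4 and 25.8 CPM in WT cells (2.44 ± 0.26, adjusted p = 3.73e-10). Its H3K27me3 was 191 and 233 CPM in cKO cells, against 661 and 610 CPM in WT cells (-1.58, adjusted p = 1.06e-07). Klf15, a Krüppel-like factor, rose in H3K4me3 to 159 and 188 CPM in cKO cells, against 35.1 and 27.6 CPM in WT cells (2.47, adjusted p = 2.85e-15). Its H3K27me3 fell (-0.97, adjusted p = 0.00259), a call lost without cKO replicate 1 (adjusted p = 0.15) or cKO replicate 2 (0.11). The genotypes did not overlap at these promoters. Tead4 (0.97), Hoxa2 (1.03) and Junb (0.54) rose in H3K4me3 beside Gata2, Klf15 and Foxf1, while Hoxa3 (-0.42) and Mitf (-0.33) fell beside Pparg, Maf and Cdyl2. Hoxa2 and Hoxa3, neighbours in the HoxA cluster of body-plan genes, thus went opposite ways. The median H3K4me3 change of the list was 0.19, against 0.07 over all autosomal promoters.

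Of 15 lipid, metabolic and stress genes, H3K27ac rose at 5 and fell at 4 (beside 21.7% and 19.5% of all autosomal promoters). H3K4me3 rose at 4 and fell at 3 (beside 28.3% and 17%). Those that fell in H3K27ac were Pparg, Lpl (-1.19), the lipase of blood lipoproteins, Acsl1 (-0.76), which activates fatty acids, and Slc38a7 (-0.57), an amino acid transporter. Those that rose in H3K27ac were Mt2 (1.11), a metallothionein, Hmox1 (0.71) and Nqo1 (0.65), both induced by oxidative stress, Slc7a2 (1.08) and Cyba (1.176), a subunit of the NADPH oxidase. Cyba had 189 and 193 CPM of H3K4me3 in cKO cells, against 19.9 and 45.0 CPM in WT cells (2.54 ± 0.33, adjusted p = 0.000198). Mgst1, a glutathione transferase of membranes, fell in H3K4me3 (-1.03, adjusted p = 1.19e-06). H3K27me3 rose at 1, Pparg, and fell at 3, Mgll (-0.72), Slc7a2 (-1.14) and Mt2 (-0.74), the last of which did not pass without cKO replicate 1 (adjusted p = 0.38), cKO replicate 2 (0.19) or WT replicate 1 (0.16). The Mt2 call was also lost with a replicate block (adjusted p = 0.084), with blocks of 10 Mb (0.059) and with the whole chromosome as block (0.086). H2AK119ub1 was called at none of the list, with 2 higher at an unadjusted p under 0.05 and none by DESeq2. The median H3K4me3 change of the list was 0.08, against 0.07 over all autosomal promoters.

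The 4 cell cycle and growth genes rose in H3K4me3 relative to their blocks. Over all autosomal promoters 28.3% were called higher in H3K4me3 and 21.7% in H3K27ac. The list was chosen with earlier results known, and nothing is read from a list of 4. Gadd45a, a growth-arrest gene, had 598 and 533 CPM in cKO cells, against 291 and 345 CPM in WT cells (0.83 ± 0.13, adjusted p = 4.58e-07). Cdca3, a mitotic-entry gene, had 708 and 665 CPM in cKO cells, against 493 and 500 CPM in WT cells (0.47, adjusted p = 0.00137). Ing4 (0.61), a reader of H3K4me3, and Pard6a (0.52), a polarity protein gene, rose too, and H3K27ac rose at 3, Cdca3, Gadd45a and Pard6a. These rises depend on the regional level. Without it only the H3K4me3 rise at Gadd45a was still called, and its change was smaller, 0.22 (adjusted p = 0.0075). Without the regional level the H3K27ac changes of Cdca3, Gadd45a and Pard6a were 0.13, 0.29 and 0.21 (adjusted p = 0.43, 0.11 and 0.25). The H3K4me3 change of Cdca3 was -0.22 (adjusted p = 0.0033), that of Ing4 -0.07 (adjusted p = 0.53) and that of Pard6a 0.15 (adjusted p = 0.099). The H3K4me3 call of Pard6a was also lost without cKO replicate 1 (adjusted p = 0.069), and its H3K27ac call without cKO replicate 2 (0.053) or WT replicate 1 (0.14). Neither Polycomb mark was called at any of the 4, also at an unadjusted p under 0.05 or by DESeq2. The median H3K4me3 change of the list was 0.56, against 0.07 over all autosomal promoters.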

How the data were processed

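ChIP-seq of 4 histone marks was compared between cKO and WT cells, 2 libraries each. The authors deposited whole-number read counts in 785000 bins of 50 bp, per the file headers, 200 bins around each of 3925 gene starts, not normalised. Per the submitters' processing notes, which give no settings, the build was GRCm38 and the tools included Bowtie2 2.4.5, cutadapt 1.18, bedtools 2.30.0, SAMtools 1.9 and Picard 2.25.5. Isolated runs of single reads were 3 bins long in 98.32% of cases, so summed bins hold each read about 3 times. Because only these windows were counted, a change shared by every window would not be seen.

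Symbols were assigned by position from RefSeq GRCm38.p6, for 371 of the 414 genes. At positions shifted by 20 kb, 17 (4.106%) met one. For 22 genes the promoter overlaps a second listed promoter. Coordinates are 1-based.

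Flank levels are medians over genes of log2(count + 1), less the autosomal median. Promoter counts were tested per mark with edgeR 4.0.16 in R 4.3.3 (glmQLFit with robust dispersion, glmQLFTest), with genotype as the only term. TMM factors came from autosomal windows, filterByExpr had a minimum count of 10, and Benjamini-Hochberg adjusted p had a threshold of 0.05. The second fit added as an offset the flank level of the gene's 20 Mb block, or of the chromosome where a block held under 10 genes. It was run on simulated data built with the same block levels, which cannot show whether flank levels suit promoters. CPM values are deposited counts scaled by library size, after that offset. Alternatives are given in the closing part.

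Members, lists and alternatives were chosen with earlier results of these data known. Named genes are, per mark and chromosome, the 2 of lowest p in each direction whose libraries do not overlap, with Cxcl12, Pparg, Col1a2, Cdyl2 and Gata2 and up to 4 of lowest p per list. Other list members are named beside their list's counts. A gene that this rule names on chromosome 8 is not reported here. Replicate numbers were not taken to pair libraries.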

Additional observations from a re-analysis of the deposited data

How the results depend on the processing

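All flank changes of chromosomes 6 and 8 kept their sign under every alternative run. With chromosomes 4, 6, 7, 8, 11 and 12 out of the reference, chromosome 6 stood at -0.27 (H2AK119ub1), -0.16 (H3K27me3), -0.30 (H3K4me3) and -0.33 (H3K27ac), and chromosome 8 at -0.22, -0.082, -0.17 and -0.15. Other values on chromosome 8 that moved by more than the spread between libraries were, for H3K27me3, -0.26 with the inner flank and -0.32 with promoter bins. For H3K27ac they were -0.28 with a flank of 2 kb, -0.22 with promoter bins, -0.37 with summed flank counts and -0.34 with the upstream flank. For H3K4me3 they were -0.65 with summed flank counts and -0.25 with the upstream flank. Summed flank counts gave -0.55 for H3K4me3 on chromosome 6. Leaving out 1 library gave -0.49 to -0.41 for H3K4me3 on chromosome 6, and -0.31 to -0.29 for H3K4me3 and -0.31 to -0.28 for H3K27ac on chromosome 8.

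Counts of calls on the 2 chromosomes moved most for H2AK119ub1. In the fit relative to block flanks, against 15 higher and 10 lower, it had 4 and 4 with promoters of 1 kb to each side, 23 and 17 with the whole chromosome as block, and 6 lower with DESeq2. Promoters of 1 kb also gave 51 lower H2AK119ub1 calls in the first fit and 21 higher H3K27me3 calls in the second, and summed flank counts gave 209 higher H3K4me3 calls. Leaving out 1 library gave 0 to 6 higher and 1 to 113 lower H2AK119ub1 calls in the first fit and 2 to 13 and 1 to 13 in the second. For H3K27me3 it gave 14 to 24 and 44 to 84 in the first fit and 16 to 36 and 23 to 59 in the second, and for H3K27ac 113 to 160 lower calls in the first. Libraries of equal replicate number did not deviate together (r from -0.04 to 0.10), and a fit with the replicate number as a block called 28 promoters higher in H2AK119ub1 relative to block flanks.

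Of 2240 repeats of the 160 gene and mark results, 2105 kept direction and call, 68 gained a call, 60 lost one and 7 changed sign. Without the block offset H3K4me3 was -0.056 at Arhgap10, -0.22 at Cdca3 and -0.070 at Ing4. With summed flank counts it was 0.41 at Cxcl12, 0.45 at Ift122, 0.45 at Mbd4 and 0.053 at Jak3. The cause was not tested. A GC correction was not run, since no genome was used here. Shallow H3K27me3 libraries, with 429493 to 541615 reads, limit what single promoters can show.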
